A study of Mus musculus with 4 samples.

Results

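Integrins are the receptors with which leukocytes hold on to blood vessel walls, to other cells and to matrix. The 10 leukocyte integrin genes described here were Itga4, Itga6, Itgal, Itgam, Itgav, Itgax, Itgb1, Itgb2, Itgb5 and Itgb7. They were taken by name from the 16308 genes of 4 single-cell count tables, not by a cut on measured values. The choice was made with earlier results of these data known. All 10 were found, and each had UMIs (unique molecular identifiers, 1 per captured RNA molecule) in every library. An integrin is a pair of 1 alpha and 1 beta chain, and the pair decides what the cell can bind. Itgb2, the beta chain CD18, joins Itgal, Itgam or Itgax (CD11a, CD11b and CD11c) into receptors for ICAM adhesion molecules and complement fragments, which serve firm arrest and phagocytosis. Itga4 joins Itgb1 or Itgb7 into receptors for VCAM1, fibronectin and the gut vessel addressin MAdCAM1, and Itgb7 also joins Itgae, which holds lymphocytes at E-cadherin in the gut wall. Itga6 with Itgb1 binds laminin, and Itgav with Itgb5 binds vitronectin and helps phagocytes take up dying cells.

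The libraries held CD45+ cells sorted from the muscularis externa, the muscle coat, of the small intestine of 12 week old mice, and all animals had undergone intestinal manipulation, a surgical handling of the bowel that starts muscularis inflammation. WT animals were C57BL/6J and CCR2-/- animals were B6.129S4-Ccr2tm1Ifc/J, which lack the chemokine receptor through which monocytes leave the bone marrow. Cells were taken 24 h or 72 h after the operation, with 1 library for each of the 4 combinations and several female mice pooled in each, so that no spread between animals could be measured and no difference between 2 libraries was tested. By its name the CCR2-/- strain may carry 129S4 sequence around the deleted gene, and the deletion, that sequence and the library cannot be told apart.

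The libraries held 1674 (WT, 24 h), 1774 (CCR2-/-, 24 h), 1315 (WT, 72 h) and 1048 (CCR2-/-, 72 h) cells, 5811 in all, with median depths of 12859, 3281.5, 12427 and 4990.5 UMIs per cell, and 4 barcodes were shared over all pairs of libraries. Each cell was placed in a leukocyte class by the share of that class's marker genes with at least 1 UMI. No integrin was a marker, so the class was set without the genes described. Monocyte/macrophage-like cells numbered 1282, 209, 927 and 138 (WT 24 h, CCR2-/- 24 h, WT 72 h and CCR2-/- 72 h, the order kept throughout) and neutrophil-like cells 307, 1316, 185 and 543. Dendritic cell-like cells numbered 21, 42, 59 and 79, T cell-like cells 11, 56, 44 and 92, and NK cell-like cells 6, 31, 20 and 38, and 304 cells joined no class. The neutrophil-like class took in part of a cluster of 530 cells led by Siglecf that could not be named, and no cell passed the eosinophil gate. A cluster of 318 cells led by Il1f9 and one of 274 cells led by Cxcl13, Retnla and Prg4 also stayed unnamed. Neutrophil markers scored best in the former and monocyte/macrophage markers in the latter. Median depth was 14255 to 15992 UMIs in monocyte/macrophage-like but 2085 to 3456 in neutrophil-like cells, so levels are given as counts per 1000000 UMIs of the summed class (CPM), and shares of cells only after thinning to equal depth, with the unthinned share beside them. The pan-leukocyte gene Ptprc, which encodes CD45, lay at 347 to 507 CPM in monocyte/macrophage-like and above that in neutrophil-like cells, and 16 non-leukocyte markers together at 27.2 to 143 CPM over the classes. Ccr2 lay at 758 and 1059.6 CPM in the monocyte/macrophage-like cells of the WT libraries and at 96.1 and 94.1 CPM in those of the CCR2-/- libraries. Whether the counted 3' end lies inside the deleted part was not checked. Intervals below are 95% intervals that cover counting error only.

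The 10 genes lie on 6 chromosomes (build GRCm38). Itgam (chr7:128062640-128118491, + strand) and Itgax (chr7:128129547-128150657, + strand) are neighbours 11055 bases apart, and Itgal (chr7:127296260-127335138, + strand) lies 727501 bases before Itgam. Itga6 (chr2:71745616-71858416), Itga4 (chr2:79255426-79333123) and Itgav (chr2:83724397-83806916), all on the + strand, share chromosome 2. Itgb1 lies at chr8:128685654-128733200 (+), Itgb2 at chr10:77530252-77565708 (+), Itgb5 at chr16:33829665-33949338 (+) and Itgb7 at chr15:102215995-102231944 (- strand). The 250 bases before the start of 3 members are shown because the 2 neighbours Itgam and Itgax differed between classes, and because Itgb7 had its own class pattern, high in T cell-like cells. They are RefSeq sequence of GRCm38.p6, on the gene's strand, from chr7:128062390-128062639, chr7:128129300-128129549 and chr15:102231936-102232185. Capitals mark GAGGAA or, on the other strand, TTCCTC, the core letters bound by the myeloid factor PU.1.

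Itgam: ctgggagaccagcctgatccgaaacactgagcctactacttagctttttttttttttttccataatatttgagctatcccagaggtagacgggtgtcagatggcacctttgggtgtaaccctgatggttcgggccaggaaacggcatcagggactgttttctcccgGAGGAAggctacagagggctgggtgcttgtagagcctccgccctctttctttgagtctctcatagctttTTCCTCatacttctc

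Itgax: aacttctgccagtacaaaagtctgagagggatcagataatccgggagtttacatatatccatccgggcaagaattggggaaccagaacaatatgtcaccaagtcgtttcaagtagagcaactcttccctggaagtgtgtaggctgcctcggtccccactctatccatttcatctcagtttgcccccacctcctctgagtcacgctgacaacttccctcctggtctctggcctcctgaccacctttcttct

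Itgb7: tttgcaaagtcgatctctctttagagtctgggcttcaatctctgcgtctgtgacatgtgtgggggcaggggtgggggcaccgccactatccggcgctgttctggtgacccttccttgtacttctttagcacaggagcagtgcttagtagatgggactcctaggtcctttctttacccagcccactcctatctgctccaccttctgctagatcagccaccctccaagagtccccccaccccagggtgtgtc

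The Itgam window held 2 copies, 1 on each strand, and the Itgax and Itgb7 windows held none of these letters. Of the 7 members with a window, 3 held a copy (Itgam 2, Itgav 2 and Itgb1 1), and of all 32851 windows of this length 23.3% did.

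Itgam, the CD11b chain by which myeloid cells are usually sorted, separated the myeloid from the lymphoid classes. Its level was 627 (616 to 638), 548 (524 to 573), 439 (428 to 450) and 420.0 (393 to 448) CPM in monocyte/macrophage-like cells and 825 (764 to 889), 721 (696 to 747), 407 (352 to 468) and 541 (510.1 to 573) CPM in neutrophil-like cells. It was 122, 90.1, 152 and 90.6 CPM in dendritic cell-like cells, 12.9, 22.4 and 3.62 CPM in the T cell-like cells of the 3 libraries with at least 20 of them, and 61.4, 71.3 and 70.2 CPM in the NK cell-like cells of the same 3 libraries. Each myeloid value lay above each dendritic value and each NK value above each T value, whereas the monocyte/macrophage-like and neutrophil-like values overlapped. Itgax, the CD11c chain used to sort dendritic cells, took another order. It stood at 197, 252, 176 and 162 CPM in dendritic cell-like, 27.9, 135, 45.9 and 75.2 CPM in monocyte/macrophage-like, 51.2, 85.4, 148 and 108 CPM in neutrophil-like and 89.4, 127 and 77.6 CPM in NK cell-like cells. In T cell-like cells it was near 0, with 8 UMIs in 203 cells (4.90 CPM, interval 2.11 to 9.64). The dendritic values lay above all others, and the neutrophil-like, NK cell-like and monocyte/macrophage-like values overlapped.

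Itgal, the CD11a chain of LFA-1 with which lymphocytes hold antigen-presenting cells, was high outside the mononuclear phagocytes. Neutrophil-like cells had 162, 209, 165 and 183 CPM, T cell-like cells 196, 249.7 and 209 CPM and NK cell-like cells 274, 285 and 303 CPM. Monocyte/macrophage-like cells had 18.2 (16.4 to 20.2), 55.3 (47.9 to 63.6), 32.8 (29.9 to 36.0) and 50.4 (41.5 to 60.7) CPM, and dendritic cell-like cells 6.24, 6.36, 24.9 and 39.8 CPM. Neutrophil-like and T cell-like values overlapped, NK values lay above both, and monocyte/macrophage-like and dendritic values overlapped below them. Itgb2, the beta chain common to all 3, stood at 324, 470.0, 295 and 245 CPM in monocyte/macrophage-like, 409, 423, 472 and 539.8 in neutrophil-like, 309, 303, 323 and 356 in dendritic cell-like, 319, 231 and 312 in T cell-like and 391, 428 and 477 in NK cell-like cells. All classes overlapped with at least 1 other.

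**Figure D1:**
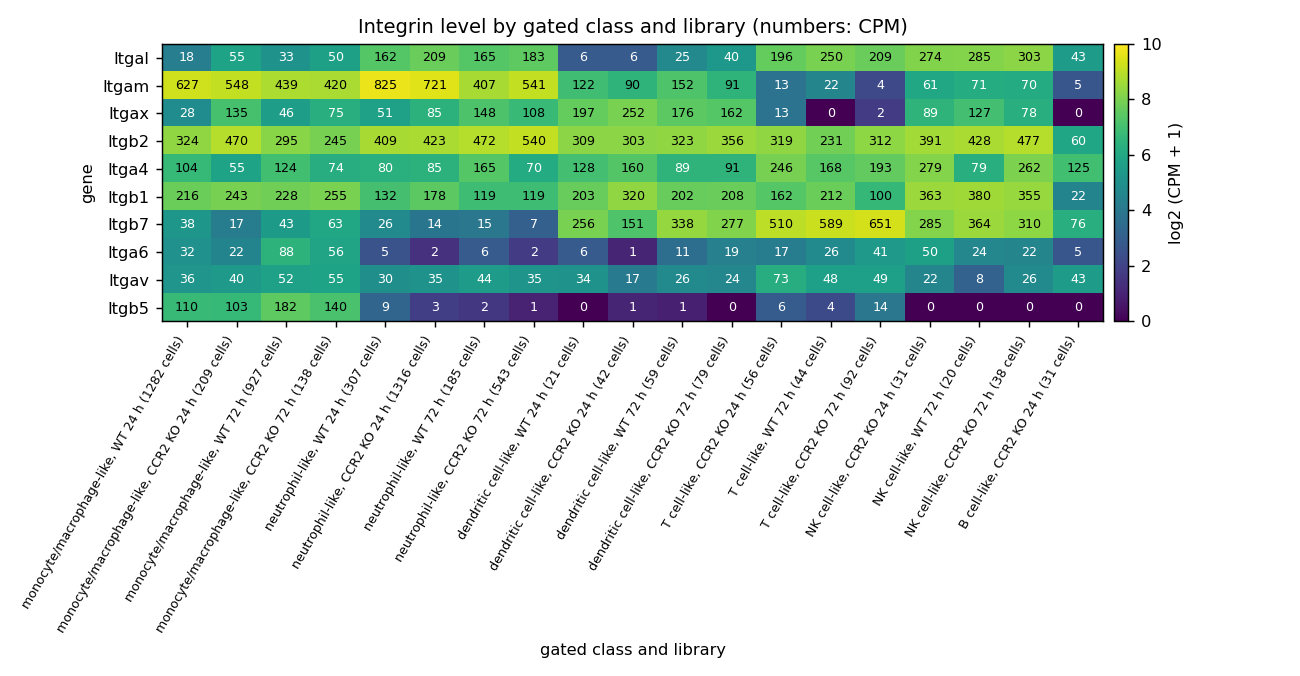
Heat map of the level of each of the 10 integrin genes (rows) in each gated class and library (columns), with CPM of the class sum written in the cells and shown as colour. Itgb7 is high in the T cell-like, NK cell-like and dendritic cell-like columns, Itgam in the monocyte/macrophage-like and neutrophil-like columns, and Itgb5 in the monocyte/macrophage-like columns.

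Itgb7, the partner of Itga4 and Itgae in gut homing, was high in T cell-like, NK cell-like and dendritic cell-like cells. It was low in the monocyte/macrophage-like and neutrophil-like classes. T cell-like cells had 510.4 (448 to 580), 589 (501 to 688) and 651 (598 to 709) CPM, NK cell-like cells 285, 364 and 310.4 CPM, and dendritic cell-like cells 256 (204 to 318), 151 (128 to 178), 338 (306 to 373) and 277 (257 to 299) CPM. Monocyte/macrophage-like cells had 38.3, 17.3, 42.9 and 63.5 CPM, and neutrophil-like cells 25.6, 14.0, 14.6 and 7.42 CPM. Among these classes T cell-like values lay above all others, and NK and dendritic values overlapped above the monocyte/macrophage-like and neutrophil-like ones. The 31 innate lymphoid cell-like cells of all libraries together had 518 CPM, beside 0 UMIs of Itgam, Itgax and Itga6. With each cell thinned to 1000 UMIs, an Itgb7 UMI was seen in 40.0%, 40.9% and 45.7% of T cell-like cells and in 2.08%, 0.846%, 1.68% and 0.577% of neutrophil-like cells. Unthinned, the shares were 78.6%, 84.1% and 93.5% of T cell-like and 3.26%, 3.80%, 1.62% and 2.39% of neutrophil-like cells.

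Itga4, the alpha chain of the VCAM1 and MAdCAM1 receptors, stood at 246, 168 and 193 CPM in T cell-like and 279, 79.2 and 262 CPM in NK cell-like cells. It was 104, 55.3, 124 and 74.3 CPM in monocyte/macrophage-like, 80.4, 85.2, 165 and 69.6 CPM in neutrophil-like and 128, 160.0, 88.6 and 90.6 CPM in dendritic cell-like cells. The T cell-like values lay above those of the 3 myeloid classes, which overlapped among themselves, and the NK values overlapped with every class. Itgb1, the most widely used beta chain, was 216, 243, 228 and 255 CPM in monocyte/macrophage-like, 132, 178, 119 and 119 CPM in neutrophil-like, 203, 319.9, 202 and 208 CPM in dendritic cell-like and 363, 380.2 and 355 CPM in NK cell-like cells. T cell-like cells had 162, 212 and 100.1 CPM, but 20 UMIs came from 1 cell in each of the 72 h libraries, and without that cell the values were 147 (WT) and 76.6 CPM (CCR2-/-). NK values lay above all others and neutrophil-like values below those of the monocyte/macrophage-like cells.

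Itgb5 belonged almost wholly to the monocyte/macrophage-like cells, and Itga6 was higher there than in neutrophil-like cells in every library. Itgb5, the vitronectin receptor's beta chain, had 110.0, 103, 182 and 139.6 CPM there, 8.53, 2.65, 2.09 and 0.927 CPM in neutrophil-like cells (7, 11, 1 and 2 UMIs) and 6.46, 3.73 and 14.5 CPM in T cell-like cells. The 4 dendritic cell-like sums held 2 Itgb5 UMIs in all (0.411 CPM, interval 0.0498 to 1.49), and the 95 NK cell-like cells held 0, which allows up to 6.10 CPM. Itga6, the laminin receptor's alpha chain, had 32.1, 21.5, 87.8 and 56.3 CPM in monocyte/macrophage-like, 6.24, 1.06, 11.2 and 19.3 CPM in dendritic cell-like, 17.2, 26.1 and 41.0 CPM in T cell-like and 4.87, 1.68, 6.26 and 2.32 CPM in neutrophil-like cells. For Itga6 the neutrophil-like values overlapped with the dendritic ones and lay below the monocyte/macrophage-like and T cell-like ones. Itgav, the alpha chain of the vitronectin and latent TGF-beta receptors, stood at 35.8, 40.5, 52.2 and 54.9 CPM in monocyte/macrophage-like, 30.5, 34.7, 43.8 and 34.8 CPM in neutrophil-like, 34.3, 17.0, 25.8 and 23.8 CPM in dendritic cell-like and 73.2, 48.4 and 49.5 CPM in T cell-like cells. The neutrophil-like and the T cell-like values of Itgav each overlapped with the monocyte/macrophage-like ones, and the dendritic values lay below them.

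The classes were compared over the libraries with edgeR's quasi-likelihood test on the 19 class sums of at least 20 cells, with the library as a block and 10614 genes tested. The 4 libraries are 4 conditions, so the spread behind these p-values includes the differences between conditions. Against monocyte/macrophage-like cells, 4 members were higher in neutrophil-like cells, where 27.7% of all genes tested were, and 2 were lower, where 33.8% of all genes were. The median log2 fold change was 0.37 over the members and -0.22 over all genes tested. Itgal was higher by 2.88 ± 0.367 (log2, SE; edgeR adjusted p = 2.92e-06), Itgax by 1.05 ± 0.301 (edgeR adjusted p = 0.00587), Itgb2 by 0.97 ± 0.203 (edgeR adjusted p = 0.00049) and Itgam by 0.86 ± 0.285 (edgeR adjusted p = 0.0145). The log2 fold change was -4.79 ± 0.468 for Itgb5 (edgeR adjusted p = 3.39e-07) and -3.39 ± 0.511 for Itga6 (edgeR adjusted p = 1.87e-05). Itga4 (0.57), Itgav (0.17), Itgb1 (-0.24) and Itgb7 (-0.73) did not pass.

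These neutrophil-like differences depended on the scale. TMM scaling, which matches the bulk of genes between sums, raised the neutrophil-like over monocyte/macrophage-like log2 ratio by 0.74, 0.87, 0.05 and 0.35 in the 4 libraries relative to total UMIs. On total UMIs, Itgal (2.32), Itgb2 (0.47, edgeR adjusted p = 0.0474), Itga6 (-3.88) and Itgb5 (-5.37) still passed, Itgam (0.29) and Itgax (0.57) did not, and Itgb1 (-0.80) and Itgb7 (-1.34) passed as lower. The log2 ratio of CPM within a library was 3.15, 1.92, 2.33 and 1.86 for Itgal but 0.40, 0.40, -0.11 and 0.36 for Itgam and 0.87, -0.67, 1.69 and 0.52 for Itgax, so that of these 3 only Itgal had the same sign in all 4 libraries. The calls of Itgax (0.73 without the WT library of 72 h) and Itgam (0.75 without the WT and 0.72 without the CCR2-/- library of 24 h) were also lost with 1 library left out, and that of Itgax with clusters in place of the gate (0.66) or with no lead asked of the best class (0.74).

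In dendritic cell-like cells 2 members were higher, where 10.6% of all genes were, and 4 were lower, where 13.5% were, with a median of -0.46 over the members and -0.04 over all genes. Itgb7 was higher by 2.67 ± 0.334 (edgeR adjusted p = 7.31e-06) and Itgax by 1.59 ± 0.302 (edgeR adjusted p = 0.000576). The log2 fold change of Itgam was -2.15 ± 0.302 (edgeR adjusted p = 2.65e-05), of Itga6 -2.25 ± 0.438 (edgeR adjusted p = 0.000742) and of Itgav -0.96 ± 0.263 (edgeR adjusted p = 0.0110), and Itgb5 was also lower, on the 2 UMIs given above. Within the libraries the dendritic over monocyte/macrophage-like log2 ratio of Itgb7 was 2.74, 3.13, 2.98 and 2.13 and that of Itgam -2.37, -2.61, -1.53 and -2.21. Itga4 (0.30), Itgal (-0.84), Itgb1 (-0.07) and Itgb2 (-0.07) did not pass. The call of Itgav was lost without the CCR2-/- library of 72 h (-0.96, edgeR adjusted p = 0.0504), and that of Itgam with clusters in place of the gate (-1.35, edgeR adjusted p = 0.0626).

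In T cell-like cells 3 members were higher, where 16.5% of all genes were, and 4 were lower, where 20.3% were, with a median of -0.66 over the members and -0.07 over all genes. Itgb7 was higher by 3.78 ± 0.367 (edgeR adjusted p = 2.06e-07), Itgal by 2.17 ± 0.392 (edgeR adjusted p = 0.000242) and Itga4 by 0.98 ± 0.363 (edgeR adjusted p = 0.0415). The log2 fold change was -5.68 ± 0.475 for Itgam (edgeR adjusted p = 3.33e-08), -4.02 ± 0.548 for Itgax (edgeR adjusted p = 1.19e-05), -3.86 ± 0.526 for Itgb5 (edgeR adjusted p = 2.10e-05) and -0.88 ± 0.274 for Itgb1 (edgeR adjusted p = 0.0172). Within the 3 libraries the T cell-like over monocyte/macrophage-like log2 ratio of Itgb7 was 4.88, 3.78 and 3.36 and that of Itgal 1.83, 2.93 and 2.05. Itga6 (-0.97), Itgav (0.08) and Itgb2 (-0.44) did not pass. The calls of Itga4 and Itgb1 were lost without the CCR2-/- library of 24 h (0.78 and -0.76) or of 72 h (0.68 and -0.74), and that of Itga4 also without the WT library of 24 h (1.01) and with DESeq2 in place of edgeR (0.98). With clusters in place of the gate Itgb1 did not pass (-0.56, edgeR adjusted p = 0.246).

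Since a beta chain is shared by several alpha chains, the ratio of UMIs between members was compared between classes. Whether the 2 genes of a ratio are captured equally well was not checked, so these ratios compare classes and not the amounts of the 2 genes. Itgb7 per Itgb1, the choice open to Itga4, was 3.16 (2.43 to 4.15), 2.77 and 6.51 (5.16 to 8.30) in T cell-like, 1.26, 0.474, 1.67 and 1.33 in dendritic cell-like and 0.785, 0.958 and 0.875 in NK cell-like cells. It was 0.177, 0.0712, 0.188 and 0.249 in monocyte/macrophage-like and 0.194, 0.0783, 0.123 and 0.0625 in neutrophil-like cells. The order T above dendritic above both myeloid classes held in each library that had them. Itgal per Itgam, the choice open to Itgb2, was 0.0291, 0.101, 0.0749 and 0.120 in monocyte/macrophage-like and 0.196, 0.290, 0.405 and 0.339 in neutrophil-like cells, which did not overlap, and 4.45, 4.0 and 4.32 in NK cell-like cells. Itgax per Itgam was 0.0445, 0.247, 0.105 and 0.179 in monocyte/macrophage-like, 0.0620, 0.118, 0.364 and 0.199 in neutrophil-like, 1.62, 2.80, 1.16 and 1.79 in dendritic cell-like and 1.45, 1.78 and 1.11 in NK cell-like cells. The dendritic and NK values overlapped, as did the 2 myeloid ones, and each of the former lay above each of the latter.

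**Figure D2:**
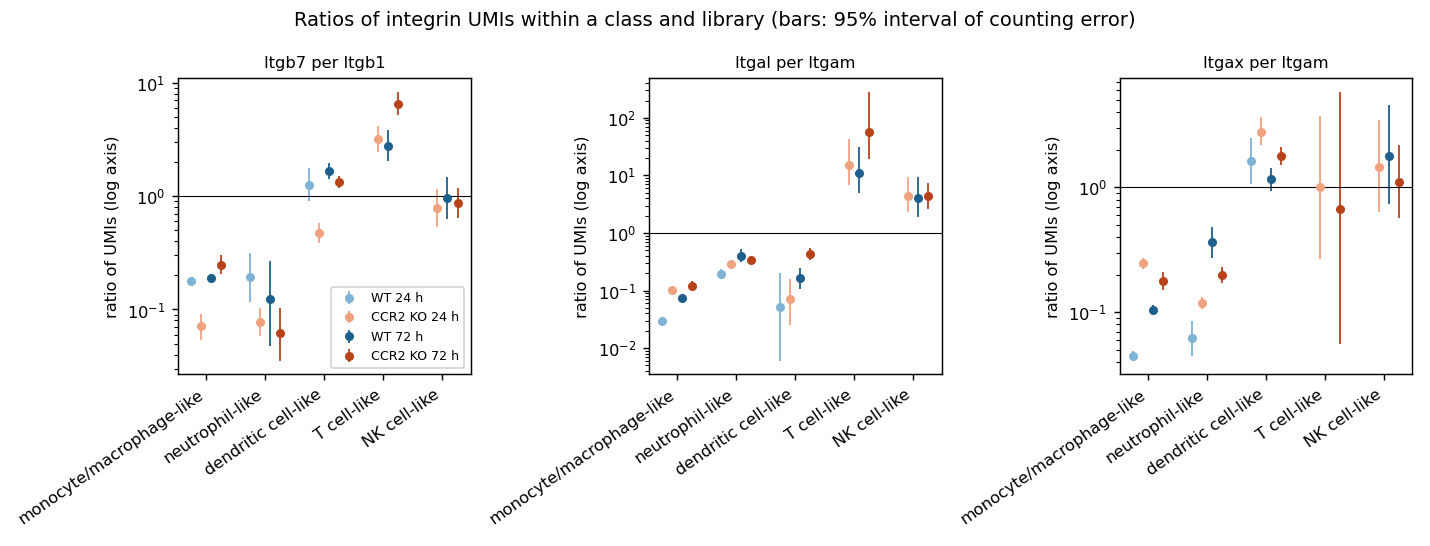
UMI ratios of partner chains (log axis) in each gated class, 1 point per library with its counting interval, for Itgb7 per Itgb1, Itgal per Itgam and Itgax per Itgam. T cell-like points lie highest for Itgb7 per Itgb1 (2.77 to 6.51), and neutrophil-like points lie above monocyte/macrophage-like points for Itgal per Itgam (0.196 to 0.405 against 0.0291 to 0.120).

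Within the monocyte/macrophage-like cells, the CCR2-/- and WT libraries of 24 h differed most in Itgax and Itgal. A member was counted when its level differed by at least 1 on the log2 scale, the rule that 3.99% of all genes at 20 CPM or more passed in this comparison, and 3 members did, 2 higher and 1 lower. Itgax was 135 (124 to 148) CPM in the CCR2-/- library and 27.9 (25.6 to 30.4) CPM in the WT library, a log2 ratio of 2.28 (2.10 to 2.46). Itgal was 55.3 against 18.2 CPM, a log2 ratio of 1.60 (1.34 to 1.86), and Itgb7 was 17.3 (13.3 to 22.2) against 38.3 (35.6 to 41.1) CPM, a log2 ratio of -1.14 (-1.54 to -0.77). Their Itgax UMIs were spread over 120 of 209 CCR2-/- cells, with 129.7 CPM left without the cell that had most. Thinned to 1000 UMIs, 7.28% (4.13 to 11.7) of CCR2-/- and 2.20% (1.47 to 3.16) of WT cells had an Itgax UMI, against 57.4% and 20.6% unthinned. T cell-like cells, a type that should lack the gene, had 1.82% thinned and 7.14% unthinned in the CCR2-/- library, with a median depth of 7181 UMIs against 15992 in its monocyte/macrophage-like cells.

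The other β2 members, the α4 chain and the rest differed by less than the fold. Itgb2 was 470.0 against 324 CPM (0.54, 0.46 to 0.61), Itgam 548 against 627 CPM (-0.19, -0.26 to -0.12) and Itga4 55.3 against 104 CPM (-0.91, -1.13 to -0.70). Itga6 had a log2 ratio of -0.58, and Itgb1 (0.17), Itgav (0.18) and Itgb5 (-0.09) were nearer to 0. Of the 10 members 5 were higher and 5 lower, with a median of 0.04 beside -0.07 over all genes. The markers of other cell types did not have the same levels in these 2 class sums. T cell markers summed to 20.7 CPM in the CCR2-/- and 2.79 CPM in the WT library, neutrophil markers to 348 and 592 CPM and dendritic markers to 253 and 239 CPM. In an alternative run without cells that had 4 or more dendritic markers, the number of members past the fold stayed within 1.5 times that given. Beyond this count, the part of these markers in the integrin differences was not tested. Itgb7 fell short of the fold with clusters in place of the gate (-0.96), with no lead asked of the best class (-0.88) and with cells thinned to equal depth (-0.69).

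At 72 h, 0 members passed the fold between CCR2-/- and WT monocyte/macrophage-like cells, where 7.37% of all genes did. Itgax was 75.2 (64.2 to 87.5) against 45.9 (42.3 to 49.6) CPM (log2 ratio 0.71, 0.46 to 0.96) and Itgal 50.4 against 32.8 CPM (0.62, 0.31 to 0.92), both on the side they had at 24 h. Itga4 was 74.3 against 124 CPM (-0.74, -0.98 to -0.51) and Itga6 56.3 against 87.8 CPM (-0.64, -0.92 to -0.37), also as at 24 h. Itgb5 had a log2 ratio of -0.38 (-0.56 to -0.21), and Itgb1 (0.16), Itgam (-0.06) and Itgav (0.07) lay close to 0. With Itgb2 the sign was the reverse of 24 h (-0.27, -0.40 to -0.14), as it was with Itgb7 at 63.5 (53.4 to 74.9) against 42.9 (39.5 to 46.5) CPM (0.57, 0.29 to 0.83). T cell markers summed to 86.9 CPM in the CCR2-/- and 46.7 CPM in the WT class sum and dendritic markers to 455 and 526 CPM. The number of members past the fold was again 0 without cells that had 4 or more dendritic markers. Beyond this count, the part of these markers was not tested.

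The 72 h value of Itgb7 in CCR2-/- cells rested on few cells. Of its 141 UMIs 94 (66.7%) came from 16 cells with at least 3 of the 4 monocyte genes Ly6c2, Plac8, Hp and Chil3 and at most 1 C1q gene, and 28 of them from 1 cell. Without all such cells in every library, Itgb7 was 34.6, 13.8, 38.7 and 24.1 CPM, and the CCR2-/- over WT log2 ratio was -1.33 at 24 h and -0.68 at 72 h, lower at both times. The same step left Itgax at 2.17 and 0.79 and Itgal at 1.75 and 0.18, so that the 72 h difference of Itgal also shrank. Dendritic markers summed to 478 CPM in these 16 cells, 9 of 14 detected with Ccl17, Xcr1, Ccr7, Fscn1 and Snx22 at 0, and T cell markers to 7.35 CPM, and their part was not tested.

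**Figure D3:**
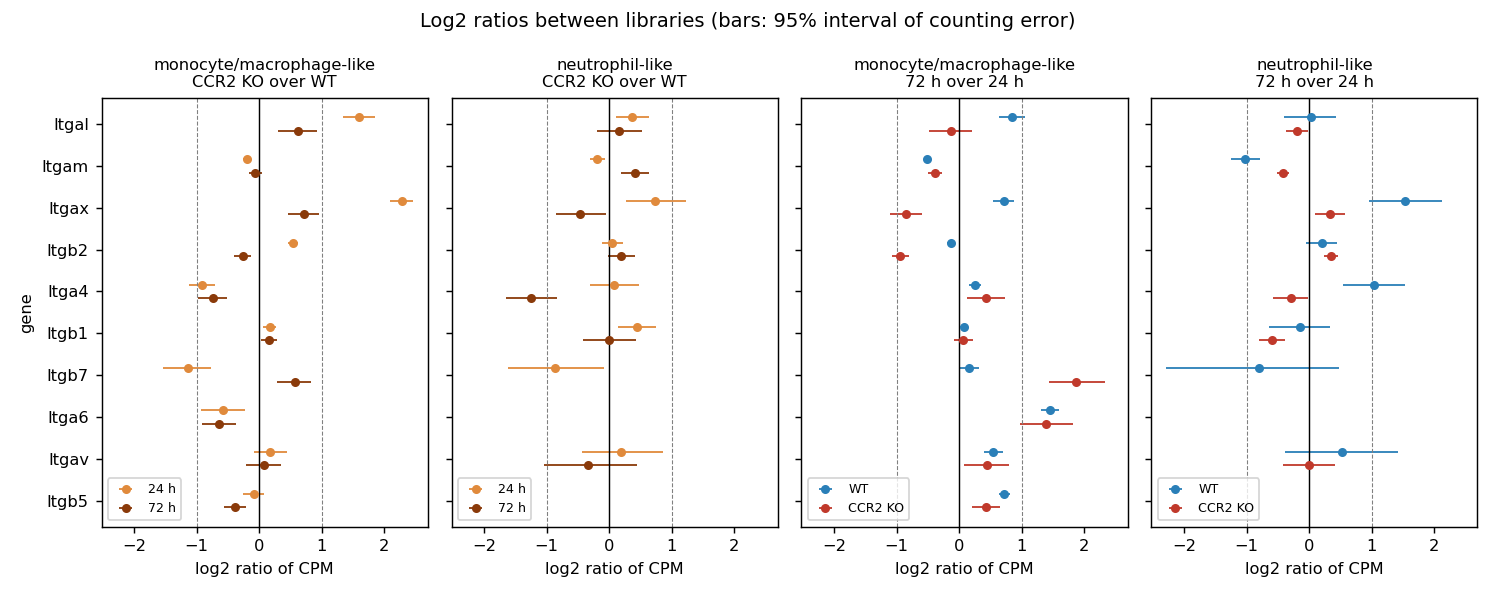
Log2 ratio of CPM between libraries for each member at 20 CPM or more in 1 of the 2, in monocyte/macrophage-like and neutrophil-like cells, for CCR2-/- over WT at each time and for 72 h over 24 h in each strain. Points are ratios with 95% counting intervals and lines mark a log2 ratio of 1 in either direction, and Itgax (2.28) and Itgal (1.60) stand highest among the monocyte/macrophage-like cells at 24 h.

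Between 24 h and 72 h, Itga6 was the member with the largest time difference in WT monocyte/macrophage-like cells. It stood at 32.1 CPM at 24 h and 87.8 CPM at 72 h, a log2 ratio of 1.45 (1.31 to 1.59), and was the 1 member past the fold, where 13.0% of all genes were. In CCR2-/- cells it stood at 21.5 and 56.3 CPM (1.39, 0.97 to 1.82), 1 of 2 members past the fold, where 14.9% of all genes were, and Itgb7 was the other (1.87, 1.43 to 2.33), on the few cells described above. Itgal (0.85), Itgb5 (0.73), Itgax (0.72, 0.55 to 0.88) and Itgav (0.55) were higher and Itgam lower (-0.52) at 72 h in WT cells. In CCR2-/- cells Itgax was lower at 72 h (-0.85, -1.11 to -0.59), opposite to WT, and Itgb2 was at -0.94 against -0.14 in WT cells. Itgam was lower at 72 h in both strains (-0.38 in CCR2-/- cells). The median of the members was 0.40 in WT and 0.25 in CCR2-/- cells, beside -0.04 and 0.14 over all genes, and the time comparisons share their libraries with the strain comparisons.

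The class itself spans newly arrived monocytes and macrophages, so it was divided by C1qa, C1qb and C1qc, complement genes of mature macrophages, and by the 4 monocyte genes named above. C1q-gated cells numbered 166, 83, 509 and 96 and Ly6c-gated cells 324, 35, 37 and 16, with 443, 31, 124 and 3 cells in between that had both sets. Itga6 was higher in the C1q-gated cells of every library, at 66.7, 37.8, 101 and 69.8 CPM against 9.62, 6.64 and 19.9 CPM and 0 UMIs in the Ly6c-gated cells. Itgax had the same order, at 72.2, 147, 50.3 and 74.7 CPM against 13.7, 82.9, 15.9 and 33.1 CPM, as did Itgb5, at 139.5, 148, 222 and 182 CPM against 94.5, 82.9, 109.5 and 36.8 CPM. Itgb7 had the opposite order in each library, at 18.6, 5.51, 32.1 and 10.4 CPM in C1q-gated and 49.8, 34.8, 153 and 345 CPM in Ly6c-gated cells, and so had Itgb2, at 296, 359.9, 261 and 165 against 386, 645, 469.7 and 581 CPM. Itgal had log2 ratios of C1q over Ly6c of -0.12 (-0.65 to 0.40), 0.36 (-0.22 to 0.97) and -1.93 (-2.37 to -1.47) in the first 3 libraries. Its interval left out 0 in the WT library of 72 h alone. Itgam had -0.58 (-0.68 to -0.48), -0.08 and -0.20, lower in C1q-gated cells with an interval that left out 0 in the first library alone. The log2 ratio of Itga6 was 2.79 (2.30 to 3.32), 2.51 and 2.34 in the same libraries. The libraries held these cells in unequal numbers, so each comparison between libraries was repeated inside the sub-gates.

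**Figure D4:**
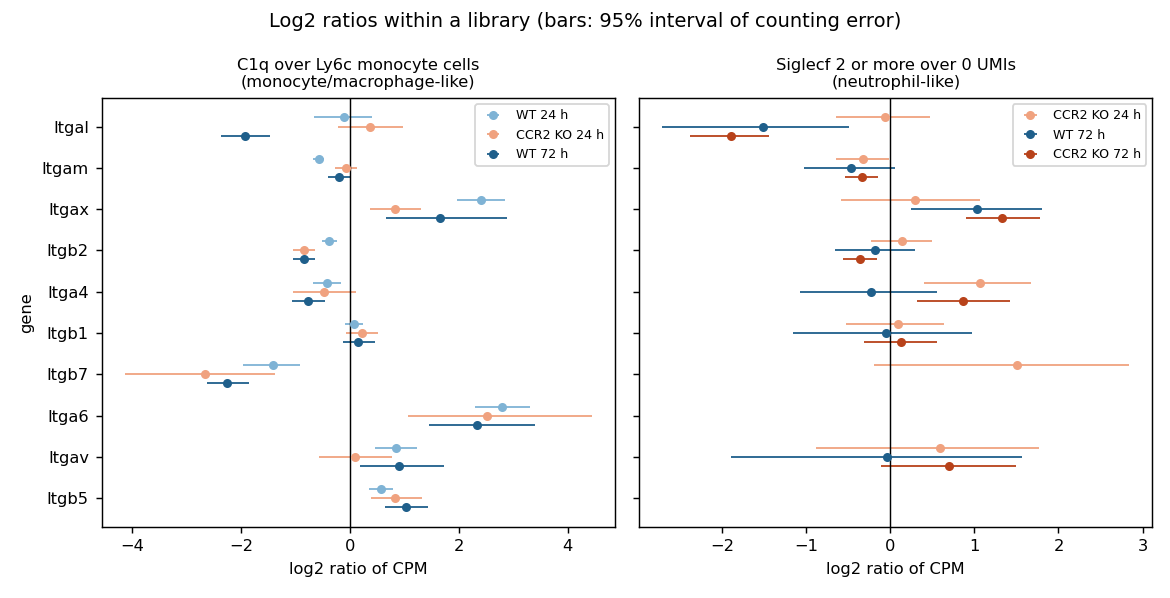
Log2 ratio of each member between sub-gates within a library, C1q-gated over Ly6c-gated monocyte/macrophage-like cells and neutrophil-like cells with at least 2 over those with 0 Siglecf UMIs, 1 point per library with its counting interval. Itga6 and Itgax lie above 0 and Itgb7 and Itgb2 below 0 in the C1q comparison. Itgax lies above 0 in the Siglecf comparison, with an interval that holds 0 in the CCR2-/- library of 24 h.

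Inside the sub-gates, Itgax was higher in the CCR2-/- library of 24 h in all 3, by a log2 ratio of 1.03 (0.71 to 1.35) in C1q-gated, 2.22 (1.78 to 2.64) in intermediate and 2.60 (2.04 to 3.16) in Ly6c-gated cells. Itgal was likewise higher in all 3, by 1.71 (1.18 to 2.27), 1.61 (1.08 to 2.11) and 1.24 (0.64 to 1.80). Itgb7 had -1.75 (-3.16 to -0.57) in C1q-gated cells but intervals that held 0 in intermediate (-0.26) and Ly6c-gated cells (-0.52). At 72 h the C1q-gated cells of the CCR2-/- library had less Itgb7 (-1.63, -2.49 to -0.88), Itga4 (-0.99) and Itgb2 (-0.66) and more Itgax (0.57, 0.24 to 0.89). Across time in WT cells, Itga6 was higher at 72 h within the C1q-gated (0.60, 0.33 to 0.87) and intermediate cells (1.29, 0.98 to 1.59), both less than in the class as a whole. Itgax was lower at 72 h within WT C1q-gated cells (-0.52, -0.81 to -0.23), although the class as a whole had 0.72, and the C1q-gated share of the class was larger at 72 h. T cell markers summed to 9.53, 51.2, 75.2 and 131 CPM and dendritic markers to 233, 162, 445 and 304 CPM in the C1q-gated cells. Neutrophil markers summed to 202, 329, 194 and 332 CPM in the C1q-gated cells, higher in the CCR2-/- library at both times, but at 24 h to 611 (WT) and 393 CPM (CCR2-/-) in intermediate and to 1062 and 446 CPM in Ly6c-gated cells. The part of these markers in the integrin differences was not tested.

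In neutrophil-like cells the strains were compared by the same rule. Of the 8 members past the level floor 0 passed the fold at 24 h, where 10.0% of all genes did. With so few members this count cannot be set apart from that share. Itgax stood at 85.4 (76.8 to 94.8) in CCR2-/- against 51.2 (36.9 to 69.2) CPM in WT cells (0.74, 0.28 to 1.24). Itgam was 721 against 825 CPM (-0.19, -0.31 to -0.07), and Itgal (0.37), Itgb1 (0.44) and Itgb7 (-0.87) were also short of the fold, the last on 58 and 21 UMIs of which 7 came from 1 WT cell. At 72 h, 1 of 7 members passed, where 5.02% of all genes did. It was Itga4, at 69.6 (58.9 to 81.6) in CCR2-/- against 165 (131 to 206) CPM in WT cells (-1.25, -1.65 to -0.83). Itgam had a log2 ratio of 0.41 (0.19 to 0.64) and Itgax of -0.46 (-0.85 to -0.06), each opposite to 24 h on total UMIs. On the TMM scale Itgam was at -0.02 at 24 h and 0.55 at 72 h, so its 24 h difference depended on the scale. Itgax kept opposite signs there (0.91 and -0.32).

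Between the times, Itgam was lower at 72 h in neutrophil-like cells of both strains, and Itgax was higher in those of WT. In WT cells Itgam had a log2 ratio of -1.02 (-1.26 to -0.79), Itgax 1.53 (0.96 to 2.12) and Itga4 1.04 (0.55 to 1.53), the 3 of 8 members past the fold, where 28.5% of all genes were. In CCR2-/- cells 0 of 7 passed, where 25.5% of all genes did, with -0.42 for Itgam, 0.33 (0.09 to 0.58) for Itgax, -0.59 for Itgb1 and -0.29 for Itga4. All genes had a median time ratio of 0.47 in WT and 0.37 in CCR2-/- cells on total UMIs, beside 0.12 and -0.19 for the members, and TMM moved these medians to -0.23 and -0.31. On the TMM scale the time ratio of Itgam was -1.67 in WT and -1.09 in CCR2-/- cells and that of Itga4 in WT cells 0.38. Itgax was at 0.88 in WT and changed sign in CCR2-/- cells (-0.35). On that scale Itgax and Itga4 thus fell short of the fold in WT cells. The 2 members past it were Itgam and Itgb7 (-1.46), where 23.9% of all genes were. Thinned to 1000 UMIs, an Itgam UMI was seen in 58.3% (52.4 to 64.1), 48.9% (46.2 to 51.7), 28.5% (22.0 to 35.7) and 41.3% (37.1 to 45.7) of neutrophil-like cells, and unthinned in 75.9%, 80.2%, 55.1% and 73.5%. T cell-like cells had 3.64%, 0% and 1.09% thinned and 7.14%, 11.4% and 3.26% unthinned. Monocyte/macrophage markers summed to 5746, 4418, 4067 and 3764 CPM and dendritic markers to 118, 179, 234 and 254 CPM in the neutrophil-like sums, and their part was not tested.

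Neutrophil-like cells with Siglecf, a surface lectin of eosinophils and of some tissue neutrophils, differed in both CD11a and CD11c chains at 72 h. Cells with at least 2 Siglecf UMIs numbered 5, 45, 46 and 166, beside 283, 1128, 105 and 278 cells with 0. Itgal was 74.4 CPM with and 212 CPM without Siglecf in the WT library of 72 h (-1.51, -2.71 to -0.49) and 69.9 against 260.1 CPM in the CCR2-/- library of 72 h (-1.90, -2.38 to -1.44), but 200.4 against 209 CPM in the CCR2-/- library of 24 h (-0.06). Itgax was 231 against 113 CPM (1.03, 0.25 to 1.81) and 168 against 66.5 CPM (1.33, 0.90 to 1.77) at 72 h and 96.7 against 78.6 CPM (0.30, -0.59 to 1.07) at 24 h. Itga4 was higher with Siglecf in the CCR2-/- libraries of 24 h (1.07, 0.40 to 1.67) and 72 h (0.87, 0.32 to 1.42). In the WT library of 72 h its log2 ratio was -0.23 (-1.07 to 0.55). Itgam had log2 ratios of -0.32, -0.47 and -0.34, with an interval that held 0 in the WT library of 72 h. Other markers moved with Siglecf. Neutrophil markers summed to 56470 CPM with and 79645 CPM without it in the CCR2-/- library of 24 h, 43199 and 96371 CPM in the WT library of 72 h and 41654 and 155990 CPM in the CCR2-/- library of 72 h. Dendritic markers summed to 193 and 178, 372 and 198, and 343 and 167 CPM in the same order, with 4 to 6 of 14 detected in the cells with Siglecf, and their part in the integrin differences was not tested. Among the cells with 0 Siglecf UMIs, the WT time differences of Itgax (1.44, 0.68 to 2.19), Itga4 (1.41, 0.83 to 1.99) and Itgam (-0.92, -1.21 to -0.65) were of similar size to those of the whole class, and the 72 h strain difference of Itga4 was -1.88 (-2.44 to -1.31).

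In the smaller classes, several members differed between libraries, and intervals are given here for some of them only. Among the levels given above, Itga4, Itgb1 and Itgax were lower at 72 h than at 24 h in CCR2-/- dendritic cell-like cells. In CCR2-/- T cell-like cells Itga6 was higher at 72 h, and Itgam at 72 h was lower than in WT. Itgb7 in dendritic cell-like cells was lower in the CCR2-/- library at 24 h (-0.76, -1.16 to -0.35) and at 72 h (-0.29, -0.47 to -0.10), and higher at 72 h than at 24 h in WT (0.40, 0.06 to 0.76) and CCR2-/- cells (0.87, 0.61 to 1.14). Itgam was lower in the CCR2-/- dendritic cell-like cells of 72 h (-0.75, -1.04 to -0.46), and Itgal was higher at 72 h in CCR2-/- ones (2.65, 1.47 to 4.13). In T cell-like cells Itgb7 was higher at 72 h in the CCR2-/- libraries (0.35, 0.13 to 0.58), and Itgb1 lower in the CCR2-/- than in the WT library of 72 h (-1.09, -1.59 to -0.57), with the single cells named above included. NK cell markers summed to 3870 CPM in the T cell-like cells of the CCR2-/- library of 24 h, 783 CPM in those of the WT library of 72 h and 590 CPM in those of the CCR2-/- library of 72 h, and their part was not tested. B cell-like cells, 31 of them in the CCR2-/- library of 24 h, had 125 CPM of Itga4, 75.9 of Itgb7 and 59.6 of Itgb2, and 0 Itgax UMIs in all 59 cells of the class.

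Summed over all cells, the members gave another picture. The CCR2-/- libraries held fewer monocyte/macrophage-like cells (11.8% and 13.2% of cells, against 76.6% and 70.5% in WT) and more neutrophil-like ones (74.2% and 51.8%, against 18.3% and 14.1%). Itgal over all cells was 25.1, 123, 41.9 and 97.9 CPM, and 67.9% and 41.4% of its UMIs in the CCR2-/- libraries came from neutrophil-like cells, against 25.0% and 11.4% in WT. Itgb5 was 101, 37.6, 150.1 and 34.7 CPM over all cells, with 91.7% to 99.7% of its UMIs from monocyte/macrophage-like cells in every library. Itgb7 over all cells was 48.1, 72.0, 87.9 and 195 CPM. Of its UMIs 72.6% and 40.2% came from monocyte/macrophage-like cells in WT but 8.26% and 7.44% in CCR2-/- libraries, where T cell-like (31.6% and 28.5%) and dendritic cell-like cells (19% and 35.7%) gave most of the rest. Itgam came to 92.6% and 90.7% from monocyte/macrophage-like cells in WT and to 57.8% and 43.1% from neutrophil-like cells in CCR2-/- libraries. Itgax in the CCR2-/- library of 72 h came to 34.6% from dendritic cell-like, 20.3% from neutrophil-like and 14.6% from monocyte/macrophage-like cells.

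**Figure D5:**
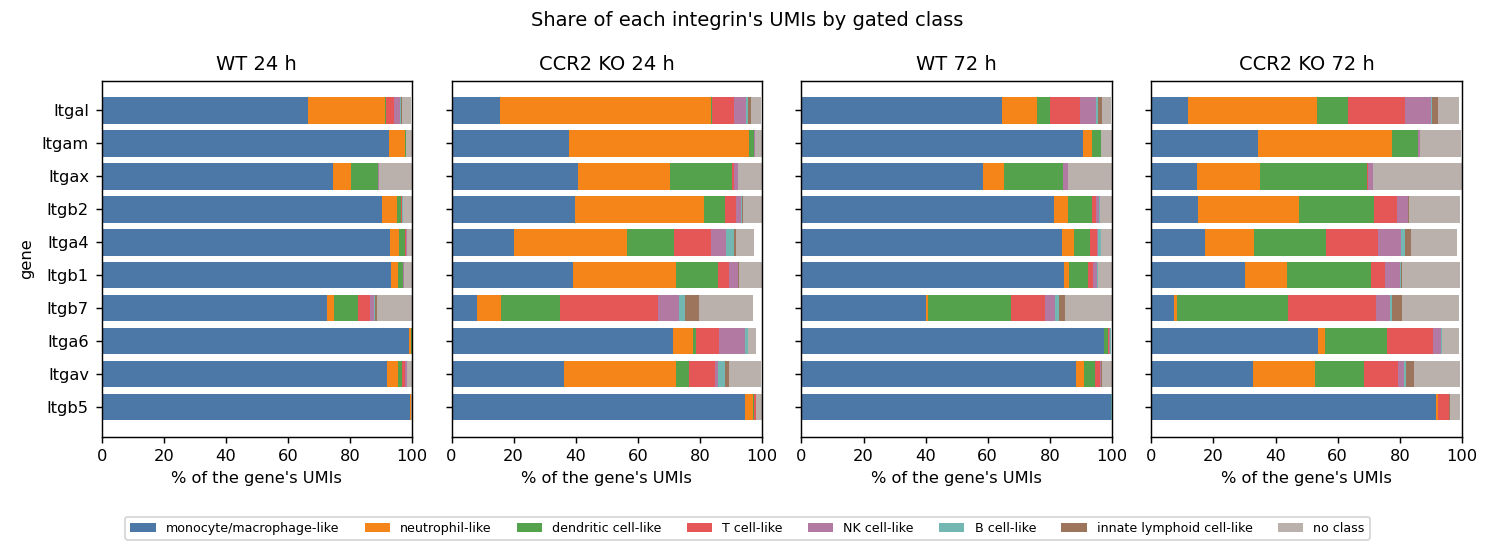
Share (percent) of each member's UMIs that came from each gated class, 1 stacked bar per gene and library, the remainder from rarer classes and cells with no class. Itgb5 comes from monocyte/macrophage-like cells in all 4 libraries (91.7% to 99.7%), whereas Itgam comes mainly from them in WT (92.6% and 90.7%) and less in CCR2-/- libraries (37.8% and 34.5%).

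Of 16 other integrin subunits 13 were in the files, and Itga7, Itga11 and Itgb6 were not analysed here. Itgae, the CD103 chain that pairs with Itgb7, was at 134, 221, 289 and 457 CPM in dendritic cell-like cells and 6.80 ± 0.658 higher there than in monocyte/macrophage-like cells (edgeR adjusted p = 3.95e-07). It was higher at 72 h than at 24 h in both strains (1.11, 0.65 to 1.60 in WT and 1.05, 0.83 to 1.27 in CCR2-/-), as was Itgb7 in the same cells, and Itgae per Itga4 stood at 1.05, 1.38, 3.26 and 5.05 there. Itga9, a receptor chain for tenascin and VCAM1, was at 16.2, 36.9, 24.3 and 32.9 CPM in monocyte/macrophage-like cells (24 h, CCR2-/- over WT, 1.19, 0.88 to 1.48). It had 0 UMIs in the neutrophil-like sums against 851, which puts its log2 difference at -5.20 or lower. Itga5, the fibronectin receptor's alpha chain, was at 47.5, 49.8, 23.0 and 19.9 CPM in neutrophil-like cells, lower at 72 h in both strains (-1.05 and -1.32). Itga1, a collagen receptor chain, was at 101, 48.4 and 32.6 CPM in T cell-like and 67.0, 47.5 and 88.7 CPM in NK cell-like cells, Itga2, its relative, at 89.4, 87.1 and 51.7 CPM in NK cell-like cells, and Itgb3, the beta chain of another vitronectin receptor, at 62.5, 70.8 and 54.3 CPM in T cell-like cells. Itga2b, Itga3 and Itgad passed 20 CPM only in classes of fewer than 20 cells in a library. Of 6 tested subunits, 2 were higher and 2 lower in neutrophil-like (27.7% and 33.8% of all genes), 2 higher and 1 lower in dendritic cell-like (10.6% and 13.5% of all genes), and 4 higher (Itga1, Itga2, Itgae and Itgb3) and 2 lower (Itga5 and Itga9) in T cell-like cells (16.5% and 20.3% of all genes).

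Integrins grip only after adaptor proteins bind their tails, and of 29 such adaptors and signalling genes 25 were tested. In neutrophil-like cells 15 were higher and 4 lower (median 0.59), in dendritic cell-like cells 6 and 6 (-0.07) and in T cell-like cells 4 and 8 (-0.34), beside medians of -0.22, -0.04 and -0.07 over all genes. Of all genes 27.7% were higher and 33.8% lower in neutrophil-like, 10.6% and 13.5% in dendritic cell-like and 16.5% and 20.3% in T cell-like cells. The higher genes of neutrophil-like cells included the Src-family kinase Fgr (2.64), Rassf5 (2.49) and Apbb1ip (2.29), which carry the signal of the GTPase Rap1 to the integrin tail, the kinases Ptk2b (2.49) and Syk (2.03) and the scaffold Pxn (2.43), whereas the parvin Parvb was lower (-4.09). In T cell-like cells the T cell adaptor Skap1 was higher (7.30), and Fgr (-4.48) and Skap2 (-3.06), its relative in myeloid cells, were lower, and Syk had 0 UMIs against 5253, a log2 difference of -6.36 or lower. In dendritic cell-like cells Fyb, an adaptor of the same route, was lower (-3.15) and the focal adhesion kinase Ptk2 higher (2.29). Between the strains, 0 of 22 adaptors passed the fold in monocyte/macrophage-like cells at either time, where 3.99% (24 h) and 7.37% (72 h) of all genes did. Fyb was lower in the CCR2-/- neutrophil-like cells of 24 h (229.8 against 618 CPM, -1.43, -1.58 to -1.27), where 10.0% of all genes passed the fold.

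Of 19 ligands 14 were in the files and 12 were tested, with Madcam1, Vtn, Fga, Fgb and Fgg not analysed here. Neutrophil-like cells (27.7% of all genes higher and 33.8% lower) had 2 higher, Icam1 (2.85), the ligand of LFA-1 and Mac-1, and C3 (2.69), the source of the complement fragment that Mac-1 binds, and 5 lower, among them fibronectin (Fn1, -4.45) and Vcam1 (-4.03), both ligands of the α4 integrins. Dendritic cell-like cells (10.6% and 13.5%) had 3 higher, the Itgae ligand E-cadherin (Cdh1, 2.99), Mfge8 (1.84), a bridge from dying cells to αv integrins, and Icam1 (0.72), and 7 lower, and T cell-like cells (16.5% and 20.3%) had 1 higher, Icam2 (1.70), and 8 lower. Within the monocyte/macrophage-like cells, 2 of 8 ligands were past the fold between the strains at 24 h, where 3.99% of all genes were, osteopontin (Spp1), bound by αv and α4 integrins, at 4959 in CCR2-/- against 1055 CPM in WT cells (2.23, 2.20 to 2.26), and Vcam1 at 63.4 against 14.8 CPM (2.10, 1.84 to 2.35). Vcam1 was also higher in the CCR2-/- library at 72 h, at 112 against 30.6 CPM (1.87, 1.64 to 2.10), where Thbs1 (-1.25), Icam2 (-1.15) and Fn1 (-1.12) were lower. In neutrophil-like cells of 72 h, Fn1 was at 6.49 in CCR2-/- against 229.7 CPM in WT cells, on 14 and 110 UMIs (-5.14, -6.06 to -4.34).

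The genes with the pattern most like each member over the 19 class sums were named by Pearson correlation of log2(CPM + 10) among 8042 genes, a description in which sums of 1 library share its cells and depth. Itgb5 was followed most closely by Stab1, Siglec1 and Itsn1, Itgam by Fcgr3, Bri3 and Sdcbp, Itgb7 by Pkp3, Fyn and Sept6 and Itgal by Gramd1a, Zfp654 and Inpp1, all with r of at least 0.92. Itgb2 was most like Myo1f, Fxyd5 and Lfng, Itga6 like Rps6ka3, P2rx7 and Slc9a9, Itgax like Stx2, Efhd2 and Cbl, and Itgb1 like Klhl20, Atp8b4 and Fam105a. Itga4, with Lncpint, Epb41 and Mpst, and Itgav, with Snapc1, Ifi27l2a and Selenot, had the weakest first matches, at 0.84 and 0.82.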

How the data were processed

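The 4 libraries were made with 10x Genomics 3' chemistry. Per the labels and the study's methods, the authors aligned reads to GRCm38 with Cell Ranger 3.0.2, removed cells of low gene number or high mitochondrial share with Seurat, and deposited raw UMI counts of 16308 genes in 5811 cells. No value was normalized before deposit, and 0 sample columns were left unused. Replicates are absent, since each group is 1 library of pooled mice.

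The 10 members and all gene lists were chosen with earlier results of these data known. A cell was given the class with the highest share of its markers detected (at least 1 UMI), with at least 3 markers and a lead of at least 10 percentage points, thresholds that were set after the data were seen. The gate and a Leiden clustering gave the same class for 85.6% of monocyte/macrophage-like and 66.7% of neutrophil-like cells. Scrublet marked 10 of 5811 cells (0.17%). Whether it missed doublets was not checked, and the marked cells were kept except in an alternative run. Levels are UMIs of the class sum per 1000000, with exact Poisson 95% intervals. Ratios between libraries have exact conditional intervals and no test, and genes at 20 CPM in 1 of the 2 libraries were read against a log2 ratio of 1. Shares are of cells thinned to 1000 UMIs, with exact Clopper-Pearson intervals. Classes were compared with edgeR's quasi-likelihood test (TMM, library as block, at least 20 cells per sum, Benjamini-Hochberg over 10614 genes, threshold 0.05), tested on simulated data. DESeq2, other scalings, other gates, a stricter mitochondrial limit and leaving out each library were tried, and of these total UMIs in the class tests, other leads in the gate and removal of cells with dendritic markers were chosen after seeing the data. All members were named in the monocyte/macrophage-like, neutrophil-like, dendritic cell-like and T cell-like classes. In the NK cell-like and B cell-like classes some were named, and the heat map shows the rest. Also named were the 3 genes most like each member and other subunits at 20 CPM or more. Of adaptors and ligands at most 8 were named per list and comparison, by size of change. Tools were Python 3.11.15, numpy 2.4.6, scipy 1.17.1, pandas 2.3.3, scanpy 1.11.5, R 4.3.3, edgeR 4.0.16 and DESeq2 1.42.0.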

Additional observations from a re-analysis of the deposited data

Results flagged for a closer look

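Some members differed in opposite directions under the same contrast, with counting intervals that left out 0 on both sides. Each group is 1 library, so none of these differences was tested. In monocyte/macrophage-like cells, Itgb2 was higher in the CCR2-/- library at 24 h (log2 ratio to WT 0.54) and lower at 72 h (-0.27). In the same cells Itgb7 was lower at 24 h (-1.14) and higher at 72 h (0.57), and without the Ly6c-gated cells, 16 of them in the CCR2-/- library of 72 h, it was lower at both times (-1.33 and -0.68). Itgax in monocyte/macrophage-like cells was higher at 72 h than at 24 h in WT (0.72) and lower in CCR2-/- libraries (-0.85).

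In neutrophil-like cells, Itgam was lower in the CCR2-/- library at 24 h (-0.19) and higher at 72 h (0.41), and Itgax was higher at 24 h (0.74) and lower at 72 h (-0.46). These are ratios on total UMIs. With TMM the 24 h ratio of Itgam was -0.02 and its 72 h ratio 0.55, so its change of direction rested on the scale. Itga4 in neutrophil-like cells was higher at 72 h in WT (1.04) and lower in CCR2-/- libraries (-0.29), where all genes had medians of 0.47 and 0.37.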

How the results depend on the processing

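With 1 library per group, a difference between libraries has no replicate check, and its interval covers counting error alone. The class tests rest on 3 or 4 libraries that are also different conditions. Members called were 6, 6 and 7 in neutrophil-like, dendritic cell-like and T cell-like cells, and 5 to 6, 5 to 6 and 5 to 7 with 1 library left out. Beside the first 3 counts, 27.7% of all genes were higher and 33.8% lower in neutrophil-like cells. The shares were 10.6% and 13.5% in dendritic cell-like and 16.5% and 20.3% in T cell-like cells. The share of all genes called with a library left out, or with no block, was not computed. The library is the block of these tests, since each library holds the classes compared, and with no replicate block the counts were again 6, 6 and 7. The replicate numbers pair no libraries across conditions.

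Some differences that did not pass a test changed sign. Itgav in neutrophil-like cells was -0.069 with clusters in place of the gate and -0.36 on total UMIs (0.17 with TMM). Itga4 in dendritic cell-like cells ranged from -0.037 (without the CCR2-/- library of 24 h) to 0.62 and Itgb2 from -0.33 to 0.17 (without the same library), with 0.037 for Itgb2 under clusters. Itgav in T cell-like cells ranged from -0.12 (without the CCR2-/- library of 24 h) to 0.21 and was -0.00712 with no lead in the gate.

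The number of members past the fold between libraries moved more. Percentages in brackets are the share of all genes past the fold under the same setting, which moved as well. In monocyte/macrophage-like cells the number was 0 for the strains at 72 h (7.37%). It was 2 after thinning (26.2%), 4 with at most 5% mitochondrial UMIs (10.5%) and 1 with no lead (6.77%). For WT time it was 1 (13.0%) and 2 after thinning (16.7%). For CCR2-/- time it was 2 (14.9%) but 4 with TMM (14.1%), 4 after thinning (35.3%) and 4 with clusters (15.2%). With at most 5% mitochondrial UMIs it was 1 (14.0%). In neutrophil-like cells it was 0 for the strains at 24 h (10.0%), but 2 without the floor of 20 CPM (41.1%) and 1 after thinning (13.7%). It was 1 at 72 h (5.02%), but 3 without the floor (34.7%) and 0 after thinning (16.3%). For CCR2-/- time it was 0 (25.5%) but 3 with TMM (23.6%), 1 without the floor (47.8%) and 1 with clusters (15.9%). The cause of these shifts was not tested. The median share of cells with a UMI, over members and libraries in monocyte/macrophage-like cells, was 9.16% thinned and 51.9% unthinned. In all, 45 of 45 class counts and 65 of 80 fold counts stayed within 1.5 times the value given. These counts are totals, so they cannot show whether the same members were called in the same direction. In neutrophil-like cells on total UMIs, Itgam and Itgax were lost and Itgb1 and Itgb7 passed as lower, which the total does not show.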

Other observations

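The 304 cells that joined no class were rich in 2 members. Itgax stood at 149, 113, 211 and 215 CPM and Itgb7 at 224, 158, 304 and 232 CPM in them (WT 24 h, CCR2-/- 24 h, WT 72 h and CCR2-/- 72 h), and in the CCR2-/- library of 72 h they held 28.4% of all Itgax and 18.5% of all Itgb7 UMIs.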
